A study of Caenorhabditis elegans with 8 samples.

Results

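Glutathione S-transferases (GSTs) join the tripeptide glutathione to reactive or fat-soluble molecules, the conjugation step of detoxification, and the conjugates then leave the cell through ABC exporters of the multidrug resistance protein group. The family is large in Caenorhabditis elegans. Many of its genes are active in the intestine, and several answer to SKN-1, the worm relative of the mammalian NRF2 factor, with gst-4 as the usual reporter of that response. Besides the numbered gst genes, the family includes gsto genes of the omega class, which carry out thiol transfer, and gstk genes of the kappa class, found in mitochondria and peroxisomes.

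The family was taken as every gene model in the deposited read count table whose symbol begins with gst-, gstk- or gsto-, which gave 49 of 21309 rows. The counts came from whole worms in 3 groups: magnolol (3 libraries, 200 µM for 1 h before extraction), honokiol (2 libraries, the same dose and time) and a DMSO control (3 libraries). Magnolol and honokiol, phenolic compounds of Magnolia bark, are positional isomers that differ in where hydroxyl and allyl groups sit on a shared biphenyl core. The sources used here give no strain, sex or stage and do not say whether replicates were separate cultures. Each p-value therefore reflects spread among these libraries alone, which may be technical. Levels are in CPM, a gene's share of the library's counts on a common scale with the library size adjusted by the TMM method. Changes are log2 fold changes ± SE, fitted and tested by edgeR's quasi-likelihood method. That test returns no SE, so it was derived as the absolute log2 fold change over the square root of the test's F value. The 95% intervals were built from this SE. The call threshold was 0.05 on the p adjusted by the Benjamini-Hochberg method over 16813 tested rows.

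Total counts per library were 30274330 to 35888186. Magnolol 2 and control 3 lay farther from the other replicates of their groups, with a chi-square per degree of freedom of 33.7 to 43.3 against 8.66 and 11.9 for the remaining pair of each group; it was 30.8 between the honokiol libraries. Of 34 marker genes for 8 tissues, 29 were found and tested, and none was at 0 in all libraries. No marker was called in edgeR in any of the 3 comparisons. At an unadjusted p under 0.05, 2 of the 29 markers were higher with magnolol than in control, against 8.6% of all tested rows. With honokiol 3 were lower than in control, against 4.09% of all tested rows. Between the isomers 13 were higher with magnolol than with honokiol, against 8.95% of all tested rows. DESeq2 called 1 marker higher with magnolol than in control and 0 with honokiol, and 2 higher with magnolol than with honokiol. limma-voom called 0, 0 and 1. The 5 intestinal markers summed to 16738 to 25830 CPM with magnolol, 9940 to 15662 CPM with honokiol and 14076 to 16828 CPM in control. In whole worms, more cells of a type and more RNA per cell cannot be told apart.

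All 49 members matched the WBcel235 annotation once, each as a protein-coding gene, with 26 on chromosome II, 9 on V, 5 on IV, 4 on III, 3 on X and 2 on I. Their median exon length was 745 bases, against 1329 over the tested rows of known length. After the low-count filter 45 were tested. The other 4, gst-14, gst-17, gst-18 and gst-37, had 55, 12, 23 and 11 counts over the 8 libraries, and no difference was detectable at this depth. Another 5, gst-8, gst-25, gst-31, gst-32 and gsto-2, averaged under 10 counts in the controls. Those that passed through a treated group had to be higher there.

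With magnolol 9 members rose, which is 20% of the 45 tested, against 2.16% of all tested rows called higher. With honokiol 10 rose, which is 22.2%, against 3.04% of all tested rows. Both counts include gst-8 and gsto-2, which averaged under 10 counts in the controls, so that passing the filter favoured a rise. No member was called lower with either compound in edgeR or limma-voom, while DESeq2 called 1 lower with each. The background for lower calls was 0.702% with magnolol and 0.393% with honokiol. At an unadjusted p under 0.05, 11 members were higher and 4 lower with magnolol (background 8.6% and 6.82%), and 16 were higher and 2 lower with honokiol (background 6.75% and 4.09%). Every magnolol library lay above every control library for 13 of the 45 tested members and below for 4, where 11.9% and 10.3% of all tested rows did so. Every honokiol library lay above every control library for 19 of the 45 tested members and below for 6, against 13.1% and 10.5% of all tested rows. The median log2 fold change of tested members was 0.13 with magnolol and 0.19 with honokiol, against 0.0027 and -0.012 over all tested rows. Both comparisons share the 3 control libraries, so they are not separate observations.

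**Figure D1:**
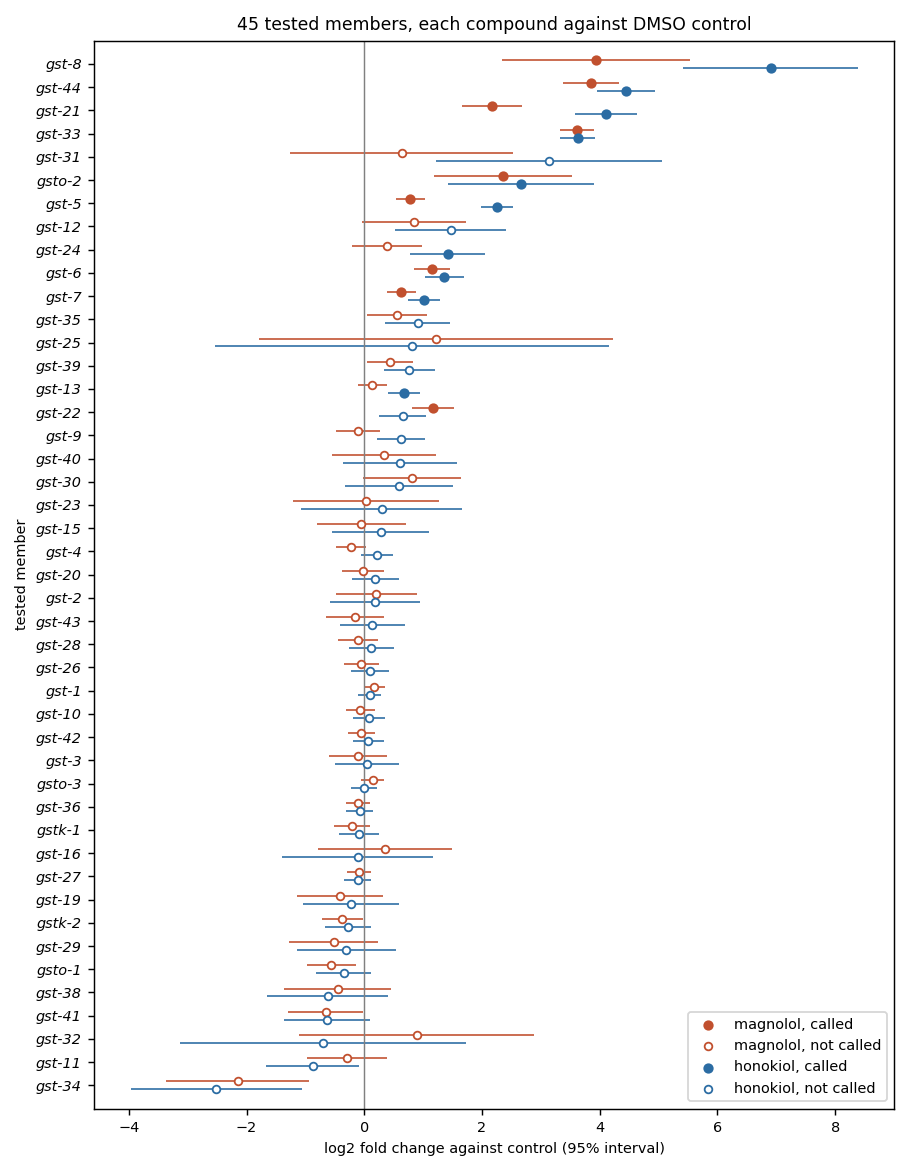
Log2 fold change against control (x axis, with 95% intervals) for each of the 45 tested members (y axis, ordered by the honokiol value), with magnolol and honokiol in separate colours and filled points for called members. The filled points are all to the right of 0, and gst-34 is the member farthest to the left, at -2.15 with magnolol and -2.52 with honokiol.

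The gst-33 gene (row gene33901, chromosome V, minus strand, 3467451 to 3468562) rose with both compounds. It stood at 65.1, 56.4 and 59.6 CPM in magnolol 1 to 3, at 57.1 and 64.5 CPM in honokiol 1 and 2, and at 5.08, 5.74 and 3.94 CPM in controls 1 to 3. Both treated groups lay far above every control library and overlapped each other. The change was 3.61 ± 0.13 with magnolol (12.2-fold, adjusted p = 1.77e-10) and 3.62 ± 0.14 with honokiol (12.3-fold, adjusted p = 1.45e-10). The difference between the isomers was -0.01 ± 0.13, with a 95% interval of -0.28 to 0.26, which covers a ratio of magnolol to honokiol from 0.821 to 1.20. For this gene the interval leaves out a difference as large as that of gst-5, which follows.

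The gst-44 gene (row gene39126, chromosome V, plus strand, 16390891 to 16392490), of the omega class, was at 14.2, 11.9 and 12.8 CPM in magnolol 1 to 3. It was at 18.7 and 20.7 CPM in honokiol 1 and 2 and at 1.23, 0.535 and 0.926 CPM in controls 1 to 3. It rose by 3.85 ± 0.22 with magnolol (14.4-fold, adjusted p = 2.61e-08) and by 4.45 ± 0.23 with honokiol (21.9-fold, adjusted p = 3.24e-09). The 3 groups did not overlap, with honokiol the highest. Between the isomers the difference of -0.61 ± 0.19 was not called (adjusted p = 0.14, range over 19 alternatives 0.0392 to 0.811), and its interval ran from -1.01 to -0.20.

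Also on chromosome V, gst-21 (row gene33314, minus strand, 1730684 to 1732018) was at 5.85, 6.63 and 4.84 CPM in magnolol 1 to 3. Honokiol 1 and 2 had 18.5 and 25.7 CPM of it. Controls 1 to 3 had 1.31, 0.863 and 1.69 CPM. No library of any group overlapped another group. It rose by 2.17 ± 0.24 with magnolol (4.49-fold, adjusted p = 3.27e-05) and by 4.10 ± 0.25 with honokiol (17.2-fold, adjusted p = 1.90e-08).

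The remaining responder on chromosome V, gst-22 (row gene39058, minus strand, 16231032 to 16232282), had the opposite order of the isomers. It stood at 16.3, 13.4 and 15.9 CPM in magnolol 1 to 3, at 8.82 and 12.6 CPM in honokiol 1 and 2, and at 5.84, 6.57 and 7.94 CPM in controls 1 to 3. It rose by 1.17 ± 0.17 with magnolol (2.25-fold, adjusted p = 6.06e-04). With honokiol its change of 0.66 ± 0.19 was not called (adjusted p = 0.0802, range over 19 alternatives 0.0258 to 0.716); it was called in 5 of these, without honokiol 1 (0.0258), without control 3 (0.0440), without control 3 and magnolol 2 (0.0412), with no low-count filter (0.0378) and after a correction for exon length (0.0416). The difference between the isomers, 0.51 ± 0.19, was not called either (adjusted p = 0.197), with an interval of 0.11 to 0.91.

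On chromosome II, gst-5 (row gene8107, plus strand, 10950352 to 10951603) separated the compounds by the smallest p of the family. Its level was 47.0, 35.6 and 47.8 CPM in magnolol 1 to 3, 112 and 129 CPM in honokiol 1 and 2, and 23.7, 26.9 and 25.1 CPM in controls 1 to 3. The 3 groups did not overlap. It rose by 0.78 ± 0.12 with magnolol (1.72-fold, adjusted p = 9.40e-04) and by 2.25 ± 0.13 with honokiol (4.76-fold, adjusted p = 1.05e-08).

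**Figure D2:**
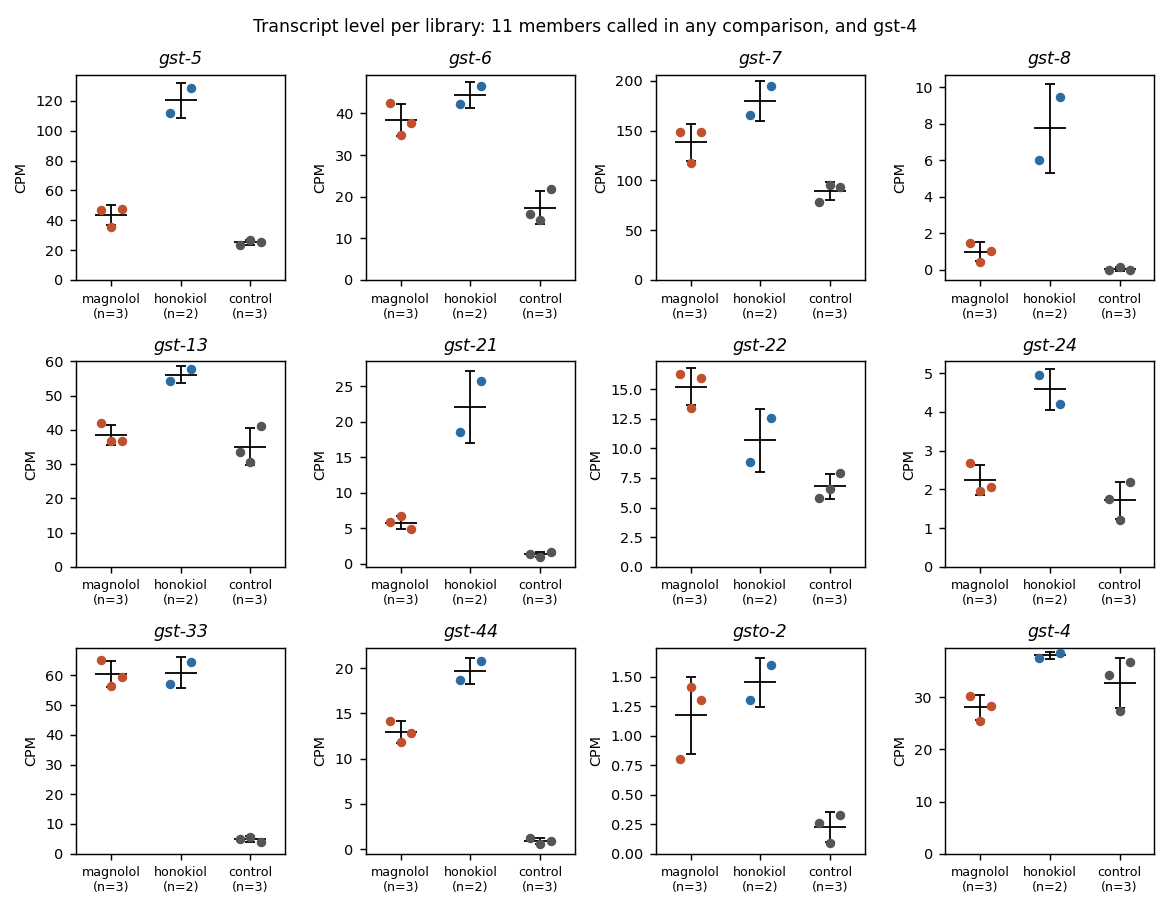
Level in CPM (y axis, linear, a separate scale per panel) in each library of the magnolol (n = 3), honokiol (n = 2) and control (n = 3) groups, for the 11 members called in any comparison and for gst-4. Points are libraries and the bars are the mean and SD; in gst-33 the magnolol and honokiol points lie together at 56.4 to 65.1 CPM, while in gst-5, gst-8 and gst-21 the honokiol points stand above all others.

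Neighbouring genes gst-6, gst-7 and gst-8 lie head to tail on the plus strand of chromosome II (rows gene5845, gene5846 and gene5847; 4879891 to 4881105, 4882062 to 4883358 and 4883712 to 4884599). The gaps between them are 956 and 353 bases. All 3 rose with both compounds. They are paralogs, and the sources used here do not say how reads that match more than 1 gene were counted, which leaves the split between them uncertain.

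The first of them, gst-6, was at 42.5, 34.8 and 37.7 CPM in magnolol 1 to 3, at 42.2 and 46.7 CPM in honokiol 1 and 2, and at 15.8, 14.4 and 21.9 CPM in controls 1 to 3. It rose by 1.15 ± 0.14 with magnolol (2.21-fold, adjusted p = 1.31e-04) and by 1.36 ± 0.15 with honokiol (2.57-fold, adjusted p = 3.55e-05). The treated groups overlapped, and the difference between the isomers was -0.21 ± 0.15, with an interval of -0.54 to 0.11.

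The most abundant responder was gst-7, at 149, 117 and 149 CPM in magnolol 1 to 3, 166 and 194 CPM in honokiol 1 and 2, and 78.5, 95.2 and 93.8 CPM in controls 1 to 3. It rose by 0.63 ± 0.12 with magnolol (1.55-fold, adjusted p = 0.00592) and by 1.01 ± 0.13 with honokiol (2.02-fold, adjusted p = 1.07e-04). The magnolol call was lost without control 1 (adjusted p = 0.0509, the highest of 19 alternatives, the lowest being 1.72e-05). Between the isomers the difference of -0.38 ± 0.13 was not called (adjusted p = 0.166), and its interval ran from -0.66 to -0.11.

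The last of the 3, gst-8, was almost silent in control worms, with 0, 6 and 0 counts in controls 1 to 3. It had 50, 14 and 36 counts in magnolol 1 to 3 and 203 and 319 counts in honokiol 1 and 2. A count of 0 allows up to 0.0876 CPM in control 1 and 0.0992 CPM in control 3, taking 3 counts as the limit and counting error only. The groups did not overlap, with means of 0.987 ± 0.521 CPM for magnolol, 7.75 ± 2.43 CPM for honokiol and 0.0595 ± 0.103 CPM for control (SD). The call was made with magnolol (adjusted p = 0.00704, range over 19 alternatives 9.43e-05 to 0.16) and with honokiol (adjusted p = 9.56e-06, range 3.44e-10 to 0.00717). The magnolol call was lost in limma-voom. The fitted folds rest on 6 control counts and are not given.

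**Figure D3:**
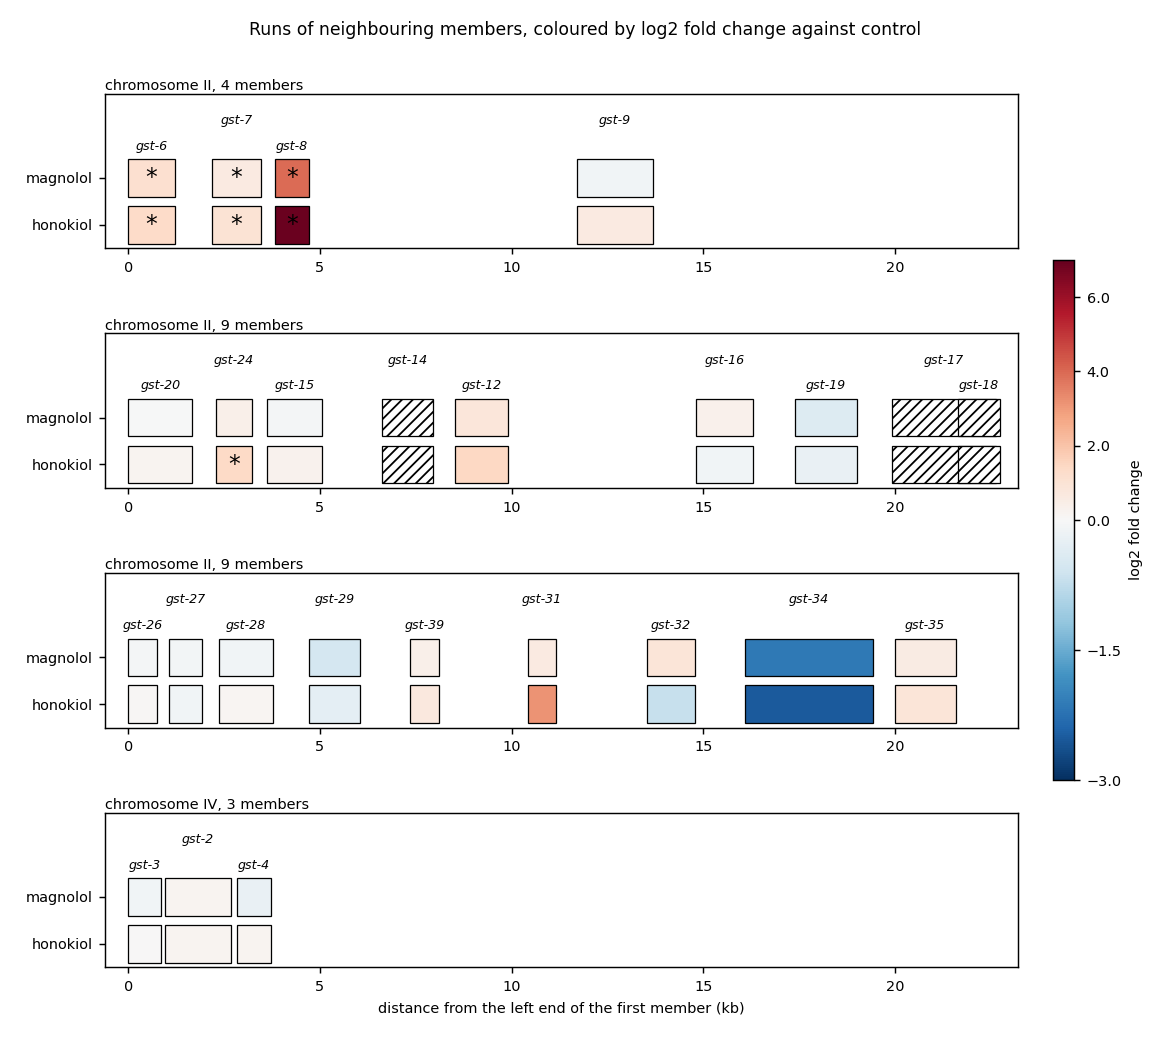
Members in runs of at least 3 neighbours, drawn to scale by distance from the left end of the first member (x axis, kb), with a row for magnolol and a row for honokiol. Colour is the log2 fold change against control (the scale runs to 7 above 0 and to -3 below it), an asterisk marks a called member and hatching an untested one; gst-6, gst-7 and gst-8 carry an asterisk in both rows, and gst-24 in the honokiol row.

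The family forms 4 runs of at least 3 members whose neighbours lie within 25 kb. The run of gst-6 to gst-9 spans 13.7 kb, and its last member gst-9, 6985 bases beyond gst-8, was not called: -0.10 ± 0.17 with magnolol and 0.62 ± 0.19 with honokiol. A run of 9 members from gst-20 to gst-18 spans 22.7 kb on chromosome II, and 1 of its 6 tested members was called, gst-24, with honokiol. Another run of 9, from gst-26 to gst-35 over 21.6 kb of the same chromosome, had none called among 9 tested in edgeR, while DESeq2 called gst-39, gst-31 and gst-34 with honokiol and gst-34 with magnolol, and limma-voom called gst-39 (adjusted p = 0.0417) and gst-31 (0.0376) with honokiol. The adjusted p of gst-39 with honokiol ranged from 0.0111 to 0.361 over 19 alternatives. Of the chromosome IV run of gst-3, gst-2 and gst-4, none was called with either compound in edgeR, DESeq2 or limma-voom.

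Within the first run of 9, gst-24 (row gene8909, minus strand, 13610443 to 13611366) was at 2.69, 1.96 and 2.06 CPM in magnolol 1 to 3. It stood at 4.96 and 4.21 CPM in honokiol 1 and 2, above 1.75, 1.22 and 2.18 CPM in controls 1 to 3, a range that the magnolol libraries overlapped. It rose with honokiol by 1.42 ± 0.30 (2.67-fold, adjusted p = 0.0108), a call lost without honokiol 1 (adjusted p = 0.108, the highest of 19 alternatives, the lowest being 0.00161). With magnolol its change was 0.38 ± 0.28, with an interval of -0.21 to 0.98. The isomers differed by -1.03 ± 0.29, which was not called (adjusted p = 0.109).

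In the second run of 9, gst-34 was the member with the lowest log2 fold change of the family. It was at 0.298, 0.193 and 0.424 CPM in magnolol 1 to 3 and at 0.297 and 0.178 CPM in honokiol 1 and 2. Controls 1 to 3 had 1.87, 1.10 and 1.16 CPM. Every treated library lay below every control library, on 6 to 15 counts per treated library and 35 to 64 per control library. The change was -2.15 ± 0.57 with magnolol and -2.52 ± 0.68 with honokiol, and neither was called (adjusted p = 0.0595 and 0.0608). DESeq2 called both (0.00769 and 0.0064), within ranges of 0.00769 to 0.212 and 0.0064 to 0.374 over 18 alternatives. Its neighbour gst-31 had 9, 9 and 7 counts in magnolol 1 to 3 and 51 and 46 counts in honokiol 1 and 2, against 4, 12 and 0 counts in controls 1 to 3. Its honokiol value was not called (adjusted p = 0.0837, range over 18 alternatives 0.00859 to 0.332); it was called without control 2 (0.0314). These genes were picked after their values were seen.

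The gst-13 gene (row gene7543, chromosome II, plus strand, 9231457 to 9232344) was at 41.9, 36.8 and 36.7 CPM in magnolol 1 to 3, and at 54.4 and 57.9 CPM in honokiol 1 and 2. The control libraries were at 33.5, 30.6 and 41.1 CPM, overlapping magnolol but not honokiol. It rose with honokiol by 0.68 ± 0.13 (1.60-fold, adjusted p = 0.00397), a call lost without honokiol 2 (adjusted p = 0.0683, the highest of 19 alternatives, the lowest being 1.39e-04). With magnolol the change was 0.13 ± 0.11, with an interval of -0.11 to 0.38.

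Of the omega class, gsto-2 (row gene11780, chromosome III, plus strand, 8554772 to 8555744) had low counts. There were 27, 44 and 46 in magnolol 1 to 3, 44 and 54 in honokiol 1 and 2, and 9, 3 and 10 in controls 1 to 3, with no overlap between treated and control libraries in CPM. It rose by 2.36 ± 0.55 with magnolol (adjusted p = 0.0302, range over 18 alternatives 0.00183 to 0.133) and by 2.67 ± 0.58 with honokiol (adjusted p = 0.015, range 7.24e-04 to 0.138). Single libraries decided both calls. For magnolol the adjusted p was 0.133 without magnolol 2, 0.124 without magnolol 3, 0.053 without honokiol 2, 0.0657 without control 1 and 0.0938 without control 2. For honokiol it was 0.0526 without honokiol 1, 0.138 without honokiol 2 and 0.0505 without control 2. The magnolol call was also lost in limma-voom (0.0886).

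The other members of the small classes were not called with either compound. For gsto-1, an intestinal omega enzyme tied to oxidative stress resistance in the worm, the change was -0.56 ± 0.20 with magnolol and -0.35 ± 0.22 with honokiol. The gsto-3 gene was at 0.15 ± 0.09 with magnolol and -0.01 ± 0.10 with honokiol. In the kappa class, gstk-1 was at -0.21 ± 0.14 with magnolol and -0.09 ± 0.16 with honokiol, and gstk-2 at -0.37 ± 0.16 with magnolol and -0.28 ± 0.18 with honokiol. In the zeta class, gst-42, which acts in tyrosine breakdown, was at -0.05 ± 0.11 with magnolol and 0.07 ± 0.12 with honokiol. Its relative gst-43 was at -0.16 ± 0.23 with magnolol and 0.14 ± 0.26 with honokiol.

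The SKN-1 reporter gene gst-4 was at 30.2, 25.5 and 28.4 CPM in magnolol 1 to 3, at 37.5 and 38.5 CPM in honokiol 1 and 2, and at 34.2, 27.3 and 36.7 CPM in controls 1 to 3. The magnolol libraries overlapped control, and the honokiol libraries lay just above the highest control. The interval of the log2 fold change was -0.48 to 0.03 with magnolol and -0.06 to 0.50 with honokiol, so that a rise as large as that of gst-6 lies outside both. Between the isomers the difference was -0.44 ± 0.13, not called (adjusted p = 0.119), with an interval of -0.72 to -0.16. In the annotation gst-4 shares 65 of its 731 exon bases with dhs-12 on the same strand, so some of its reads may belong to either gene. Of the other members, gst-17 and gst-18 share 351 exon bases with each other on 1 strand. On opposite strands, gst-36 shares 93 exon bases with scav-5, gsto-1 52 with kle-2 and gstk-2 44 with elo-3. The strand setting is not given, so reads of these genes may mix as well. Any other exon overlap of a member was of 12 bases or fewer.

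Levels per exon length (CPM per kb) placed gst-1, a gene of the pi class, and gst-7 at the top in every group. In control worms gst-1 was at 165 ± 2.16 CPM per kb and gst-7 at 119.7 ± 12.4 CPM per kb, followed by gst-36 at 64.6 ± 3.53 CPM per kb (SD, n = 3). The next 4, gst-10, gst-13, gst-4 and gst-27, were at 45.5 ± 5.08, 45 ± 6.97, 44.8 ± 6.65 and 41.5 ± 2.60 CPM per kb and did not differ beyond their spread. With magnolol, gst-1 (186 ± 6.02 CPM per kb) and gst-7 (185 ± 24.6 CPM per kb) stood level. With honokiol, gst-7 led at 242 ± 27.1 CPM per kb, followed by gst-1 at 176 ± 5.14 and gst-5 at 166 ± 16.5 CPM per kb, the last a pair within their spread. The gst-33 gene ranked 22 of 49 in control, 3 with magnolol and 4 with honokiol. The level of gst-1 itself was 143, 135 and 140.2 CPM in magnolol 1 to 3, 135 and 129 CPM in honokiol 1 and 2, and 123, 122 and 125 CPM in controls 1 to 3. Its change of 0.17 ± 0.08 with magnolol and 0.09 ± 0.09 with honokiol was not called, although no treated library overlapped control.

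**Figure D4:**
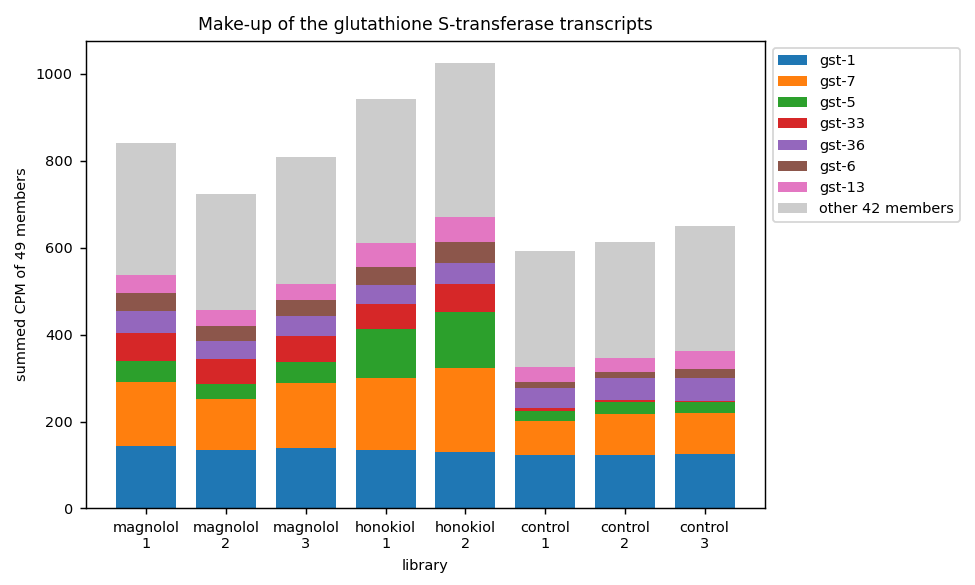
Summed CPM of all 49 members (y axis, from 0) in each library (x axis), split into 7 abundant members and the other 42. The bars stand at 724 to 840.2 CPM with magnolol, 942 to 1025 CPM with honokiol and 593 to 650.2 CPM in control, with the gst-1 segment at similar height throughout.

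Summed over all 49 members, transcripts stood at 840.2, 724 and 808 CPM in magnolol 1 to 3, 942 and 1025 CPM in honokiol 1 and 2, and 593, 612 and 650.2 CPM in controls 1 to 3, with no overlap between groups. The 38 members called in no comparison summed to 408 to 454 CPM with magnolol, 452 to 458 CPM with honokiol and 426 to 451 CPM in control. Those 38 were set apart by the calls from the same data. Their similar sums are therefore partly fixed by that choice and do not test whether the rest of the family changed. The gst-33 transcript made up 7.38% to 7.80% of the family with magnolol and 6.06% to 6.29% with honokiol, against 0.605% to 0.937% in control. For gst-5 the share was 4.92% to 5.92% with magnolol, 11.9% to 12.6% with honokiol and 3.87% to 4.40% in control.

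Set against each other at equal dose and time, the isomers differed in 4 of 45 tested members, all lower with magnolol, or 8.89% against 1.24% of all tested rows. No member was called higher with magnolol in edgeR, DESeq2 or limma-voom, against a background of 0.285%. At an unadjusted p under 0.05, gst-22 was higher and 10 members were lower, with backgrounds of 8.95% and 7.11%. Every magnolol library lay above both honokiol libraries for 3 of the 45 tested members and below for 12, against 16.4% and 18.3% of all tested rows. The median log2 difference of tested members was -0.21, against -0.014 over all tested rows. Only this pair of compounds was compared, with p-values adjusted over all tested rows.

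The differences called were gst-5 (-1.47 ± 0.13, adjusted p = 6.35e-06), gst-21 (-1.94 ± 0.22, adjusted p = 9.58e-05), gst-8 (-2.96 ± 0.50, adjusted p = 0.00416) and gst-13 (-0.54 ± 0.13, adjusted p = 0.0438). As ratios, gst-5 was 2.77-fold, gst-21 3.83-fold, gst-8 7.78-fold and gst-13 1.46-fold higher with honokiol. The first 2 were called under all 19 alternatives. The gst-8 difference was lost without honokiol 2 (adjusted p = 0.209, the highest of 19 alternatives, the lowest being 2.39e-05) and in DESeq2 (0.098). The gst-13 difference was lost without magnolol 2 (0.136), magnolol 3 (0.174), honokiol 1 (0.0523), honokiol 2 (0.431) or control 1 (0.0666), within a range of 0.00893 to 0.431 over 19 alternatives.

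**Figure D5:**
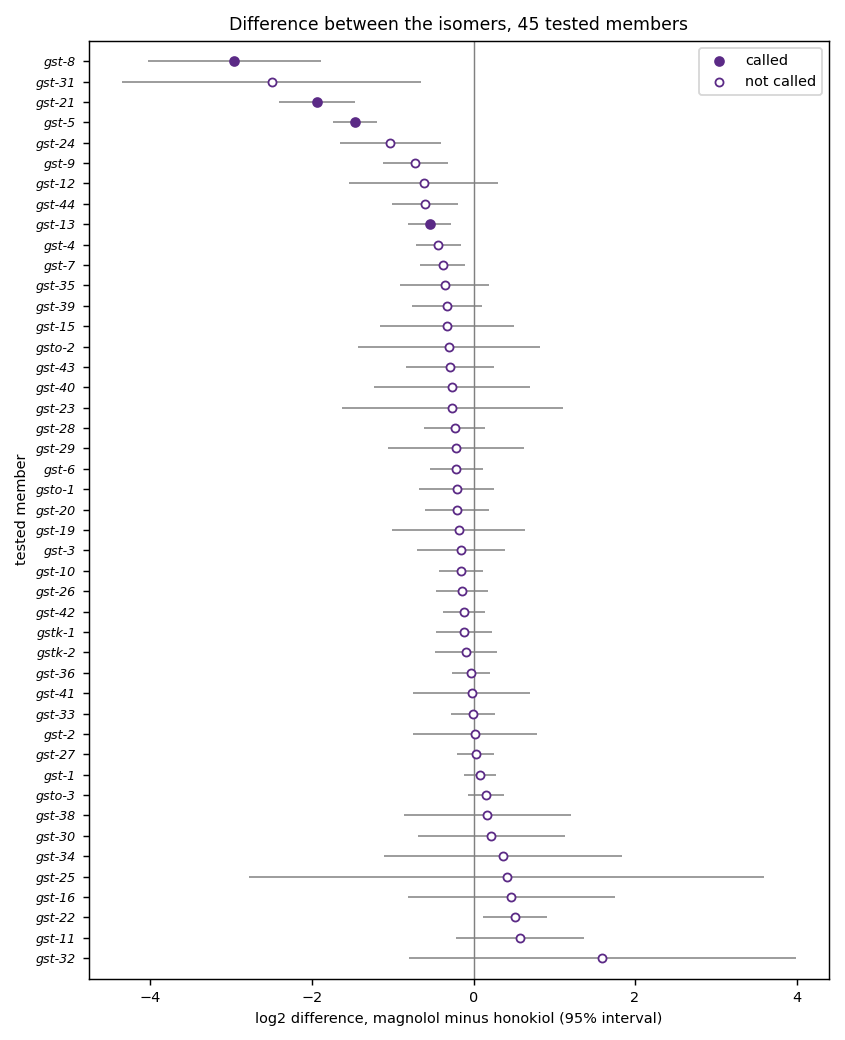
Log2 difference, magnolol minus honokiol (x axis, with 95% intervals not adjusted for the number of genes), for the 45 tested members (y axis), with filled points for called differences. The filled points of gst-8, gst-21, gst-5 and gst-13 lie left of 0, and the interval of gst-33 runs from -0.28 to 0.26.

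The members are short, and a trend with exon length ran through the table. Across rows not called, longer genes had the higher log2 differences between magnolol and honokiol (Spearman rho = 0.46 across 14123 genes) and between magnolol and control (rho = 0.35 across 13927). Between honokiol and control, longer genes had the lower values (rho = -0.19 across 13834). Genes are not independent replicates. With each library corrected for its own trend, 9 members rose with magnolol and 11 with honokiol, and gst-34 was called lower with honokiol. The shares of all tested rows called after this correction were not computed. The difference between the isomers was then called for gst-5, gst-8 and gst-21, while gst-13 was at -0.42 ± 0.10 (adjusted p = 0.0623). The part of RNA quality in the trend was not tested. For 6 of the 8 tissues, intestine and muscle among them, the summed markers were higher in every magnolol library than in either honokiol library. Of all tested rows, taken singly, 16.4% were so. Within the intestine the log2 differences were uneven: 0.68 for vit-2, 0.69 for vit-6, 0.17 for elt-2, 0.09 for ifb-2 and 0.03 for ges-1. After the exon-length correction 8 markers were higher with magnolol at an unadjusted p under 0.05, against 13 before it. The share of all tested rows at that p after the correction was not computed, so this drop has no background beside it. The part of tissue content in the differences between the isomers was not tested.

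Other genes that make, use or export glutathione were taken from a fixed list of 34, of which 33 were found and tested. With magnolol 2 were higher and 0 lower, where 2.16% and 0.702% of all tested rows were. With honokiol 3 were higher and 0 lower, where 3.04% and 0.393% were. DESeq2 called 1 lower with magnolol and 0 with honokiol, and limma-voom called 0 lower with either. At an unadjusted p under 0.05, 5 were higher and 3 lower with magnolol (background 8.6% and 6.82%). With honokiol 6 were higher and 2 lower at that p (background 6.75% and 4.09%). Called with both compounds were mrp-2 and mrp-3, exporters of the group that carries glutathione conjugates. The change of mrp-2 was 0.95 ± 0.11 with magnolol and 1.05 ± 0.12 with honokiol. That of mrp-3 was 0.54 ± 0.09 with magnolol and 0.42 ± 0.10 with honokiol, the latter near the threshold (adjusted p = 0.0395). The peroxidase gene gpx-1 rose with honokiol by 0.46 ± 0.12, also near the threshold (adjusted p = 0.0402), and was at 0.08 ± 0.11 with magnolol. Between the isomers none of the 33 was called in edgeR, with 7 higher and 3 lower at an unadjusted p under 0.05 (background 8.95% and 7.11%); DESeq2 called 2 higher and limma-voom 1. The following genes were not called in any comparison and were picked after their values were seen. Of the synthesis genes, gcs-1, which makes the rate-limiting enzyme, was at 0.0047 ± 0.09 with magnolol and 0.02 ± 0.10 with honokiol, and gss-1 at 0.0098 ± 0.10 with magnolol and 0.24 ± 0.11 with honokiol. The regulator gene skn-1 was at 0.27 ± 0.14 with magnolol and -0.12 ± 0.16 with honokiol, and wdr-23, whose product holds SKN-1 down, at 0.18 ± 0.09 with magnolol and 0.26 ± 0.10 with honokiol.

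The nearest protein-coding genes on each side of the 11 called members numbered 18, of which 12 were tested. They were sought only among the 17761 of 20257 gene models matched once to the annotation by symbol. A nearer gene without such a match, or a locus that the authors added, would have been passed over. These 18 genes were examined after the members' values were known. Genes with a gst-, gstk- or gsto- symbol were left out, but a GST under any other symbol was not. Genes that overlap the member were passed over too: nos-1 at gst-5 (12 bases), F21H7.12 at gst-22 (12 bases) and srd-63 at gst-44 (9 bases). Of the 12, 2 rose with magnolol and 3 with honokiol, against 2.16% and 3.04% of all tested rows. Beside gst-22, the steroid dehydrogenase-like gene stdh-2, 5376 bases away, rose by 2.06 ± 0.22 with magnolol and 3.59 ± 0.23 with honokiol. Beside gst-44, F13A7.11 rose by 1.21 ± 0.14 with magnolol and 1.24 ± 0.16 with honokiol. Beside gsto-2, C02D5.4 rose with honokiol by 0.78 ± 0.11 and was at 0.37 ± 0.10 with magnolol. Whether C02D5.4 is itself a GST was not checked. The tested neighbours of gst-5, gst-6, gst-7, gst-8, gst-13, gst-24 and gst-33 were not called with either compound, and gst-21 had none tested.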

How the data were processed

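Per the labels, total RNA of whole worms was extracted with TRIZOL and sequenced by a standard Illumina protocol. The authors deposited 1 table of whole-number read counts per gene, not normalized. Among builds and tools the submitters' processing notes list WBcel235 and DESeq2 without their use. The sources used here do not give the aligner, counting tool, annotation release, strand setting or handling of multiply matching reads, and reads of overlapping genes cannot be told apart. Promoter and protein sequences were not used here, and the planned motif search was not run.

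Libraries were grouped by title. Rows were kept by filterByExpr by group, scaled by TMM and fitted over all 8 libraries with group means by edgeR 4.0.16 (glmQLFit and glmQLFTest, two-sided) in R 4.3.3, with Benjamini-Hochberg adjustment over 16813 rows. The biological coefficient of variation was 14.1%. The test was also run on simulated counts drawn with the spread fitted to these libraries. These counts held neither the exon-length trend nor the greater distance of magnolol 2 and control 3. They cannot show how the test fares under those departures. Positions and exon lengths came from Ensembl release 115 (WBcel235), matched by symbol. Full values are given for members called in any comparison, for gst-4 and for the 3 members of highest level per exon length; 2 of those 3 were also called. Values of other members were added after they were seen. The members, lists and tests were chosen with earlier results of these data known.

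The alternatives comprised scaling by DESeq2 size factors or by upper quartiles, testing with DESeq2 1.42.0 or limma-voom (limma 3.58.1), no filter or a stricter one of 50 counts in 3 libraries, a fit of only the groups compared, a replicate block, a fit without the loci that the authors added, a correction for exon length, each library left out, and control 3 and magnolol 2 left out together. Plots used Python 3.11.15, pandas 2.3.3 and matplotlib 3.10.9.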

Additional observations from a re-analysis of the deposited data

How the results depend on the processing

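The counts of members called higher stayed within 1.5 times their value under every alternative run, at 7 to 9 with magnolol and 8 to 14 with honokiol, against 9 and 10. Members called lower than control numbered 0 under most settings. With magnolol there was 1 with no low-count filter, in DESeq2 and in a fit of only the groups compared. With honokiol there was 1 with no low-count filter, in DESeq2 and after the exon-length correction. It was gst-34 each time. Shares of all tested rows called were not computed under the alternatives. The strict filter removed gsto-2. Between the isomers the count lower with magnolol was 4. It was 6 in a fit of only the groups compared (gst-44 and gst-31 gained), 5 in limma-voom and with no low-count filter, 3 after the exon-length correction, and 2 to 4 with single libraries left out. Leaving out single libraries gave 7 to 9 higher with magnolol, 8 to 11 with honokiol and 0 lower with either.

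With the replicate number as a block, 8 members were higher with magnolol, 10 with honokiol and 2 lower with magnolol than with honokiol, the gst-8 and gst-13 differences being lost; of the glutathione list, 1 gene in place of 3 was then higher with honokiol. Whether the numbers pair the libraries was not settled. The correlation of deviations from group means was -0.04, 0.02 and -0.05 for magnolol and control 1 to 3. It was 0.09 and 0.02 for honokiol and control 1 and 2, and -0.13 and -0.17 for magnolol and honokiol 1 and 2. Not every library went best with its own number. The library names skip a number between honokiol 1 and 2, so honokiol 2 may belong with number 3. Its correlation was 0.06 with control 3 and 0.05 with magnolol 3. With only 2 honokiol libraries, the deviations of honokiol 1 and 2 mirror each other.

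The near-zero difference of gst-33 between the isomers changed sign, to 0.0577 with the replicate block, 0.11 after the exon-length correction and 0.0336 without control 3 and magnolol 2. It ran from -0.11 to 0.0785 with single libraries left out, and was not called under any of these. Of 738 values of the named members under alternatives, 700 kept direction and side of the threshold, 26 lost a call, 7 gained one and 5, all of gst-33, changed sign. The cause was not tested. Members under about 10 counts in control are limited by depth, and a honokiol group left with 1 library was assumed to vary like the others.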
